A study of Homo sapiens with 9 samples.

Results

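The genes described here were the E2F transcription factors *E2F1*, *E2F2*, *E2F3*, *E2F4*, *E2F7* and *E2F8*, the dimerization partner *TFDP1*, and the pocket proteins *RB1*, *RBL1* and *RBL2*. They were listed by name, 10 of the 19918 genes in the count files. The list uses no measured value, but it was drawn up with earlier results of these data known. All 10 had counts in every library and passed the filter on low counts, with between 215 and 5600 read pairs per library. RNA-seq had been performed in VCaP, an established prostate cancer cell line. The cells fell into 3 groups of 3 libraries. The knockdown groups had received si025 or si033, siRNAs aimed at exon 1 of the long non-coding RNA *IGF1R-AS1*. The third group carries the labels control and WT, and the study lists a negative control siRNA. Transfection was by the reverse method with 100 pmol, and cells were collected at 72 h. Because *IGF1R-AS1* itself was not analysed here, how far it was lowered is not known. The labels do not say whether the libraries came from separate cultures, and the *p* values then measure only the spread between these libraries.

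E2F factors bind DNA as dimers with a DP protein such as that encoded by *TFDP1*, and they control genes needed for DNA synthesis. In resting cells, pocket proteins bind E2Fs and hold those genes silent. Phosphorylation of the pocket proteins by cyclin-dependent kinases in G1 releases the E2Fs and lets cells enter S phase. *E2F1*, *E2F2* and *E2F3* encode activators that bind RB1. The product of *E2F4* acts mainly as a repressor together with RBL1 or RBL2, as part of the DREAM complex, which is built on the MuvB core. *E2F7* and *E2F8* encode atypical repressors that bind DNA without a DP partner or a pocket protein. Several of these genes are E2F targets themselves. Loss of *RB1* is well known from advanced prostate cancer.

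To show the sequence through which E2F genes can be bound by their own products, promoters were read from RefSeq (GRCh38.p14), from 250 bases before to 50 bases after the annotated start. An entry was found for 9 of the 10 genes, all except *E2F8*. The *RB1* entry lay 172703 bases from the gene's start in the count files, at an internal start, and is not shown. The *E2F3* entry printed below lay 48594 bases from that gene's start in the count files, but 27 bases from the start of a counted exon. The words TTTCCCGC, TTTCGCGC, TTTGCCGC and TTTGGCGC were searched on both strands as E2F words. No position was counted for more than 1 of these words. At least 1 E2F word was found in any promoter of 5 of the 9 genes, which include *RB1*, whose internal entry held none. Counted by promoter and not by gene, 3.31% of all 35116 promoters, from 27305 genes, held one. Counted by gene, among genes with an entry that passed the filter on low counts, 649 held at least 1 and 9299 held none. *E2F1* and *RBL1* held 2 words each, as did 0.145% of all promoters (at least 2). The 5 promoters are printed below from 5′ to 3′ on the strand of the gene, with the E2F words in capitals.

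E2F1, chr20:33686336-33686635, minus strand: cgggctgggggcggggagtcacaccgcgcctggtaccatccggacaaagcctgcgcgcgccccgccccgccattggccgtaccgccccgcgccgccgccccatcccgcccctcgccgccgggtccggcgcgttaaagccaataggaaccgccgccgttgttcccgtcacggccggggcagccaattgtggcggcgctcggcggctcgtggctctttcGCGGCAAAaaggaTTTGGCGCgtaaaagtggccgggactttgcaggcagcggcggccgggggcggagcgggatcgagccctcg
E2F2, chr1:23531184-23531483, minus strand: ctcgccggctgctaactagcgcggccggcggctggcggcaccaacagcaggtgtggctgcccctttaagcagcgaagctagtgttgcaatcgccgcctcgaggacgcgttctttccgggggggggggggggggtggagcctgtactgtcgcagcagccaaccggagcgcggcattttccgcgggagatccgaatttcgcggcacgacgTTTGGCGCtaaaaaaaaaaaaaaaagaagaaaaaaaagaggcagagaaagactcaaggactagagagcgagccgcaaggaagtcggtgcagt
E2F3, chr6:20401629-20401928, plus strand: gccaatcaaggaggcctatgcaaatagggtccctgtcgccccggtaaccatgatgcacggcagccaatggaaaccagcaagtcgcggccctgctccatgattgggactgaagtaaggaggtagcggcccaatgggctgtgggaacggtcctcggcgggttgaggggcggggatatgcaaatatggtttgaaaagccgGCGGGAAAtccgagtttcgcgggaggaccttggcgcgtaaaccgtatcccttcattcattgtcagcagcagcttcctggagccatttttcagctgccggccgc
TFDP1, chr13:113584503-113584802, plus strand: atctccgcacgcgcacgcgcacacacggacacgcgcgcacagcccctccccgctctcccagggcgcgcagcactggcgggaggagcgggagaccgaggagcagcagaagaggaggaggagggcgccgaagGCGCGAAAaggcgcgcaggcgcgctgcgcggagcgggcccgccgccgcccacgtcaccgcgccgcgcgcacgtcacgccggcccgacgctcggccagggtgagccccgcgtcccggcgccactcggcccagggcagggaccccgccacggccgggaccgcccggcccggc
RBL1, chr20:37095948-37096247, minus strand: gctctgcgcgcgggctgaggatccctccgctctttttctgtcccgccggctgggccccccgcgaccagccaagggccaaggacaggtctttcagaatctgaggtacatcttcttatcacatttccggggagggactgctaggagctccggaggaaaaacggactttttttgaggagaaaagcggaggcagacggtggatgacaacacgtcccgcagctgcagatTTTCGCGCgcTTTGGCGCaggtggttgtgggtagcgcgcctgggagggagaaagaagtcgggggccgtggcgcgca

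The E2F words began at -33 and -20 relative to the start in *E2F1*, at -26 and -16 in *RBL1*, at -42 in *E2F2*, at -53 in *E2F3* and at -120 in *TFDP1*. The promoters of *E2F4*, *E2F7* and *RBL2* and a downstream start of *E2F3* held none of these letters. The words TTTGAA and TTCGAA, forms of the cell-cycle homology region (CHR) found in late cell-cycle promoters, were also searched on both strands. A CHR word lay at -65 in *E2F3* and at 24 in *RBL2*, and 16.4% of all promoters held one. A match is a description of the letters and no evidence of binding.

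**Figure D1:**
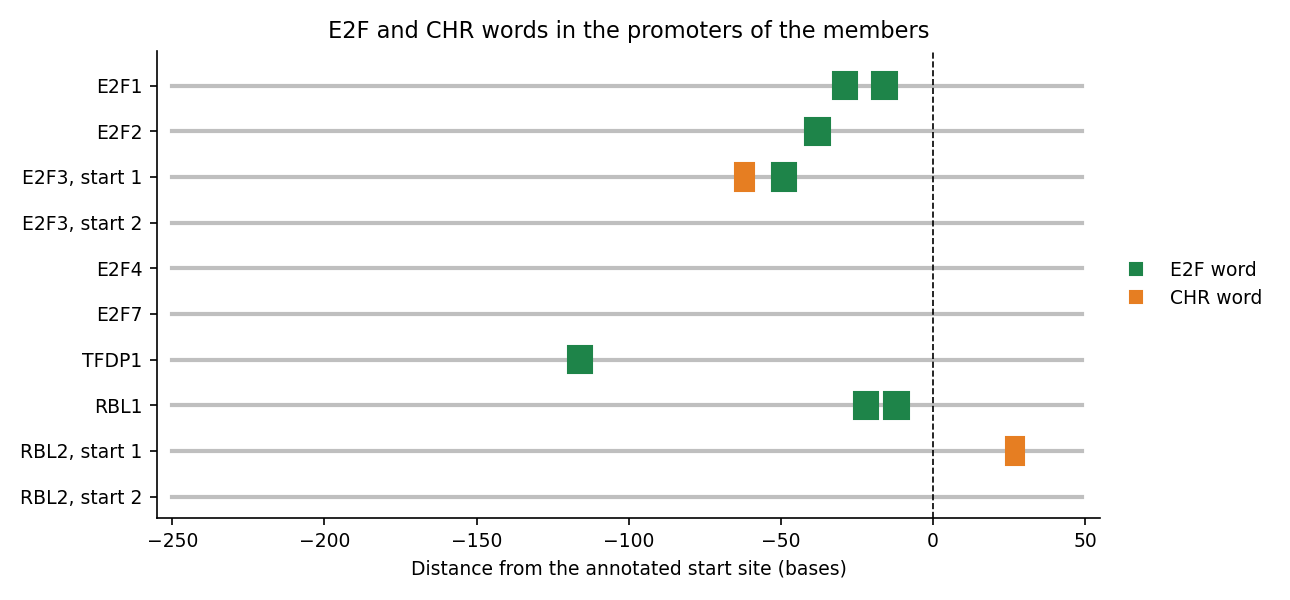
Positions of E2F words and CHR words along RefSeq promoters of the members, as distance in bases from the annotated start (dashed line). Each grey line is 1 promoter of 300 bases, and the words of *E2F1*, *E2F2*, *E2F3* and *RBL1* lie within the last 65 bases before the start.

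In control cells the transcripts of this family were all present and covered a wide range of levels. Per counted exon length, in TPM (a length-corrected share of all counted transcripts; mean ± SD, n = 3), *E2F1* was at 114 ± 5.33 and *TFDP1* at 103 ± 3.05. *E2F4* followed at 71.1 ± 5.44, *E2F3* at 62.9 ± 1.08, *RBL2* at 54.0 ± 1.96 and *RB1* at 46.3 ± 2.02. The levels of *E2F8* (22.9 ± 0.960), *RBL1* (15.3 ± 0.433), *E2F2* (15.2 ± 0.584) and *E2F7* (12.8 ± 0.330) were lower. In this order, only the neighbours *RBL1* and *E2F2* had overlapping control libraries. The order at the top depends on the length used. With the length of the canonical GENCODE transcript, *TFDP1* was at 108, *E2F1* at 105, *E2F3* at 104 and *E2F4* at 64.5 TPM, and *E2F2* stood above *RBL1*. The counted exons of *E2F3* sum to 9137 bases, against 5036 in its canonical transcript.

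Levels are given from here as CPM (counts scaled to library size) normalised by TMM, which are compared between groups and not between genes. Knockdown was tested with edgeR's quasi-likelihood test on all genes, with Benjamini-Hochberg adjustment over the 12810 tested genes. Genes whose adjusted *p* fell under 0.05 are described as called. Fold changes are on the log2 scale with their standard error (SE). With si025, 10 of the 10 genes were called, 9 lower and 1 higher. This has to be read against the background, since 61.7% of all genes tested were called with si025, 28.8% lower and 32.9% higher. With si033, 6 of 10 were called, all 6 of them lower, against 54.8% of all genes, 27.8% lower and 26.9% higher. The same 6 genes were lower with si025. The libraries of knockdown and control did not overlap for 10 genes with si025, as for 65.7% of all genes, and for 8 genes with si033, as for 59.5% of all genes. The median log2 fold change of the 10 genes was -0.57 with si025 and -0.16 with si033, beside 0.02 and 0.00 over all genes. Both comparisons use the same control libraries. In such bulk RNA, fewer cells that hold a transcript and less of it per cell cannot be told apart.

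**Figure D2:**
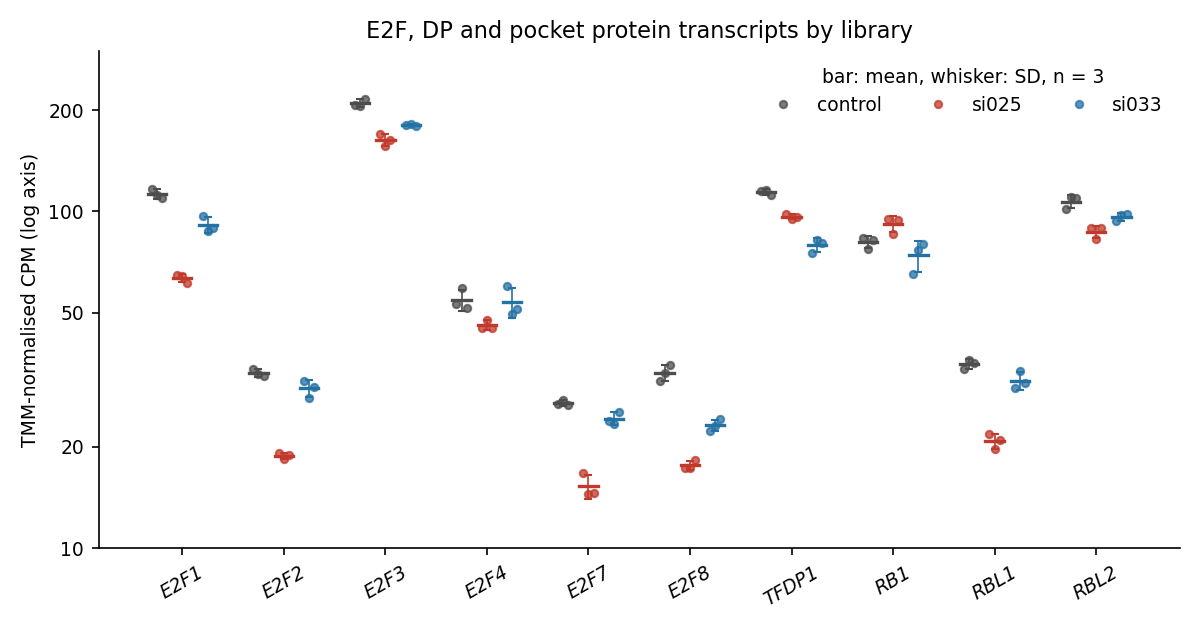
TMM-normalised CPM (log axis) of the 10 genes in each of the 9 libraries, with points for libraries, horizontal bars for the mean and whiskers for the SD (n = 3). The si025 libraries lie below the control libraries for every gene except *RB1*, for which they lie above.

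Among the activators, *E2F1* (chromosome 20, 33675486 to 33686404, minus strand, hg38) stood at 117, 112 and 109 CPM in the control libraries. It fell to 64.6, 64.2 and 61.5 CPM with si025 and to 96.7, 87.7 and 89.6 CPM with si033. The groups did not overlap, with control highest, si033 next and si025 lowest. si025 gave a log2 fold change of -0.83 (SE 0.051, adjusted *p* = 2.45e-12) and si033 one of -0.30 (SE 0.050, adjusted *p* = 1.82e-05).

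*E2F2* (chromosome 1, 23505696 to 23531266, minus strand), whose product also binds RB1, showed the response to si025 at nearly the same size. Control libraries held 34.1, 32.8 and 32.4 CPM and si025 libraries 19.2, 18.4 and 19.0 CPM, a log2 fold change of -0.81 (SE 0.065, adjusted *p* = 2.13e-10). The si033 libraries held 31.5, 28.0 and 30.2 CPM. They lay just below control without overlap, but the change of -0.14 was not called (SE 0.061, 95% interval -0.27 to -0.02, adjusted *p* = 0.0528). That call was gained in 4 of 16 alternative analyses, with *p* values down to 0.000374 under offsets for gene length and GC content, where the change was -0.23.

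*E2F3* (chromosome 6, 20353285 to 20493714, plus strand), the third activator, changed less than *E2F1* and *E2F2* with si025. With si033 its change lay between theirs. Its libraries were at 207, 206 and 216 CPM in control cells, at 169, 156 and 164 CPM with si025 and at 181, 182 and 180 CPM with si033. The groups did not overlap. The log2 fold changes were -0.37 (SE 0.044, adjusted *p* = 1.59e-07) and -0.22 (SE 0.044, adjusted *p* = 0.000214).

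The repressor *E2F4* (chromosome 16, 67192165 to 67198918, plus strand) was at 53.1, 59.1 and 51.6 CPM in control cells and at 44.9, 47.7 and 45.2 CPM with si025. It was lower with si025 by a small margin (-0.24, SE 0.067, adjusted *p* = 0.00359). With si033 its libraries, at 60.1, 49.7 and 51.3 CPM, overlapped those of control. The change of -0.03 was not called (95% interval -0.16 to 0.11, adjusted *p* = 0.766) and ran from -0.09 to 0.04 over the alternatives, so it had no settled sign.

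The atypical repressors fell with si025 as far as *E2F1*. *E2F7* (chromosome 12, 77021246 to 77065580, minus strand) was at 26.9, 27.6 and 26.6 CPM in control cells and at 16.7, 14.5 and 14.6 CPM with si025 (a change of -0.83, SE 0.072, adjusted *p* = 7.86e-10). Its si033 libraries were at 23.9, 23.4 and 25.4 CPM, below all control libraries, but the change of -0.14 was not called (95% interval -0.28 to -0.00, adjusted *p* = 0.0746). *E2F8* (chromosome 11, 19224063 to 19241655, minus strand) had the most negative fold change of the 10 genes with si025 in the main analysis. With offsets for gene length and GC content, *E2F2* (-1.02) and *E2F1* (-0.99) lay below the lowest value of *E2F8* over the alternatives (-0.97). From 31.4, 33.1 and 35.0 CPM in control cells *E2F8* fell to 17.3, 17.4 and 18.3 CPM (-0.92, SE 0.067, adjusted *p* = 4.23e-11). With si033 it fell to 22.3, 23.1 and 24.1 CPM (-0.52, SE 0.065, adjusted *p* = 4.41e-07). No library of 1 group reached the range of another.

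*TFDP1* (chromosome 13, 113584688 to 113641473, plus strand), the DNA-binding partner of the classical E2Fs, showed the reverse order of the siRNAs. It was at 115, 115 and 112 CPM in control cells, at 98.1, 94.8 and 96.2 CPM with si025 and at 75.4, 82.6 and 80.6 CPM with si033. Its si033 libraries were the lowest and the groups did not overlap. The decrease amounted to -0.24 on the log2 scale for si025 (SE 0.047, adjusted *p* = 0.000102) and to -0.52 for si033 (SE 0.048, adjusted *p* = 4.13e-09).

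Of the pocket proteins, *RB1* (chromosome 13, 48303747 to 48481890, plus strand) was the gene that rose. It was at 83.4, 77.3 and 82.5 CPM in control cells and at 95.2, 85.9 and 94.3 CPM with si025. All si025 libraries lay above control, by a log2 fold change of 0.18 (SE 0.063, adjusted *p* = 0.0176). The call was lost without control replicate 2 (0.14, adjusted *p* = 0.0998), without si025 replicate 1 (0.15, adjusted *p* = 0.0662) and without si025 replicate 3 (0.15, adjusted *p* = 0.071). With si033 it was at 65.1, 77.0 and 79.9 CPM, overlapping control, and the change of -0.12 was not called (95% interval -0.25 to 0.01, adjusted *p* = 0.115). It varied with the libraries used. It was -0.19 and called without si033 replicate 3 (adjusted *p* = 0.0341), -0.04 without si033 replicate 1 (adjusted *p* = 0.62), and -0.04 with offsets for gene length and GC content.

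*RBL1* (chromosome 20, 36996349 to 37096215, minus strand), which encodes p107, fell with si025 while *RB1* rose. It fell from 34.0, 36.3 and 35.6 CPM to 21.8, 19.7 and 21.0 CPM with si025 (-0.77, SE 0.066, adjusted *p* = 6.8e-10). With si033 it was at 29.8, 33.6 and 30.9 CPM (-0.17, SE 0.063, adjusted *p* = 0.0242). The si033 libraries lay below control by a narrow gap. The si033 call was lost in 6 of 16 alternatives, namely with DESeq2 (adjusted *p* = 0.0786), with upper quartile normalization (0.0568), and without control replicate 2 (0.0922), control replicate 3 (0.0825), si033 replicate 1 (0.0927) or si033 replicate 3 (0.0971).

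*RBL2* (chromosome 16, 53434420 to 53491648, plus strand), which encodes p130, the pocket protein of resting cells, fell with both siRNAs by smaller amounts. It was at 101, 110 and 109 CPM in control cells, at 89.3, 82.9 and 89.1 CPM with si025 and at 93.4, 97.6 and 98.1 CPM with si033. Neither knockdown group overlapped control. The log2 fold changes were -0.30 (SE 0.050, adjusted *p* = 1.62e-05) and -0.15 (SE 0.050, adjusted *p* = 0.0129). The si033 call was lost without control replicate 2 (adjusted *p* = 0.0705), control replicate 3 (0.0742) or si033 replicate 1 (0.0561).

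**Figure D3:**
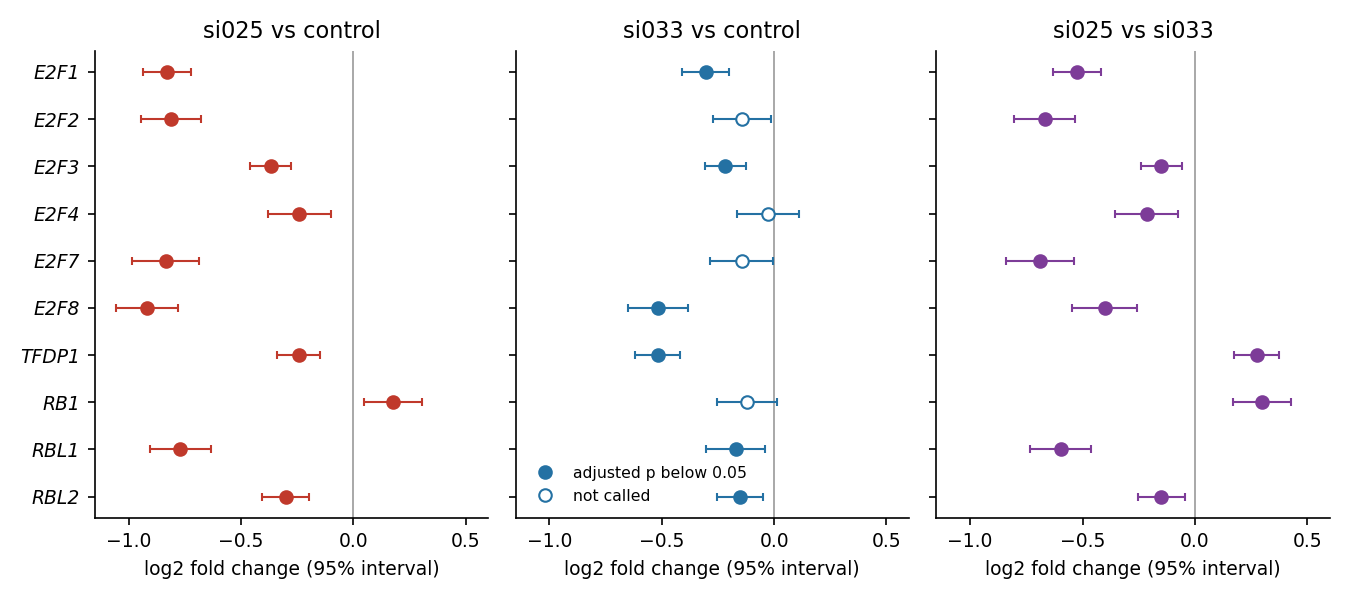
Log2 fold changes of the 10 genes (points) with 95% intervals (whiskers) from the edgeR fit, for si025 and si033 against control and for si025 against si033. Filled points are called. *E2F1*, *E2F2*, *E2F7*, *E2F8* and *RBL1* lie between -0.92 and -0.77 with si025, and *RB1* lies at 0.18.

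The siRNAs were next compared directly with each other. All 10 genes were called, against 60.9% of all genes, and no si025 library overlapped an si033 library in any of the 10, as for 62.6% of all genes. Of the 10, 8 were lower with si025 (29.7% of all genes) and 2, *TFDP1* and *RB1*, were higher (31.2%). The differences were between -0.69 and -0.52 for *E2F7*, *E2F2*, *RBL1* and *E2F1*. They were -0.40 for *E2F8*, -0.21 for *E2F4* and -0.15 for both *E2F3* and *RBL2*. With offsets for gene length and GC content the difference of *E2F3* was -0.26. *TFDP1* was higher with si025 by 0.27 (adjusted *p* = 3.51e-05) and *RB1* by 0.30 (adjusted *p* = 0.000282). The difference of *RBL2* (adjusted *p* = 0.0131) was no longer called without si025 replicate 2 (-0.11, adjusted *p* = 0.0646) or si033 replicate 3 (-0.14, adjusted *p* = 0.0606). The siRNAs thus gave the 10 genes different orders of change. In the main analysis *E2F8* was lowest under si025, and *E2F8* and *TFDP1* were level under si033. The place of *E2F8* under si025 did not hold with offsets for gene length and GC content.

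To compare the makeup of each class, shares within a library were also computed per counted exon length. Such shares do not depend on scaling between libraries, whereas summed levels do, and TPM were not scaled by TMM. Of the summed TPM of the 6 E2Fs, *E2F1* made up 38.2% ± 1.16 in control cells, 32.0% ± 0.511 with si025 and 35.9% ± 0.185 with si033 (SD, n = 3). The share of *E2F4* was 23.8% ± 1.41, 29.8% ± 1.06 and 27.1% (26.2% to 28.8% over libraries), and that of *E2F3* 21.0% ± 0.872, 24.3% ± 0.935 and 21.0% ± 1.03. With both siRNAs the E2F sum thus held more *E2F4* and less *E2F1* than in control cells, without overlap between knockdown and control libraries. With the canonical transcript lengths the *E2F3* share was 32.2%, 36.4% and 32.2% and that of *E2F1* 32.4%, 26.6% and 30.4%, so that *E2F3* then had the highest share of the 6 with both siRNAs. The summed E2F level itself was 299 ± 7.41 TPM in control cells, 212 ± 7.19 with si025 and 262 ± 12.5 with si033. An exact permutation test of 3 libraries against 3 cannot go below *p* = 0.1, so no test is given for these sums and shares.

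For the pocket proteins the makeup of the sum differed with si025. The sum was 116 ± 0.715 TPM in control cells, 111 ± 8.33 with si025 and 106 ± 7.57 with si033. In TPM the si025 libraries overlapped control whereas the si033 libraries lay below it. Because TPM lack the TMM scaling used for CPM, this difference between the siRNAs depends on the scaling chosen. *RB1* made up 40.1% ± 1.86 of it in control cells, 49.7% ± 0.323 with si025 and 40.4% ± 1.95 with si033. The share of *RBL1* was 13.2% ± 0.357, 8.56% ± 0.120 and 13.1% ± 0.615. With si033 both shares overlapped control, whereas with si025 neither did. The level of *RB1* per *E2F1* was 0.405 ± 0.0189 in control cells, 0.816 ± 0.0564 with si025 and 0.459 ± 0.0690 with si033. With the canonical transcript lengths the *RB1* share was 37.6%, 47.1% and 37.9%.

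**Figure D4:**
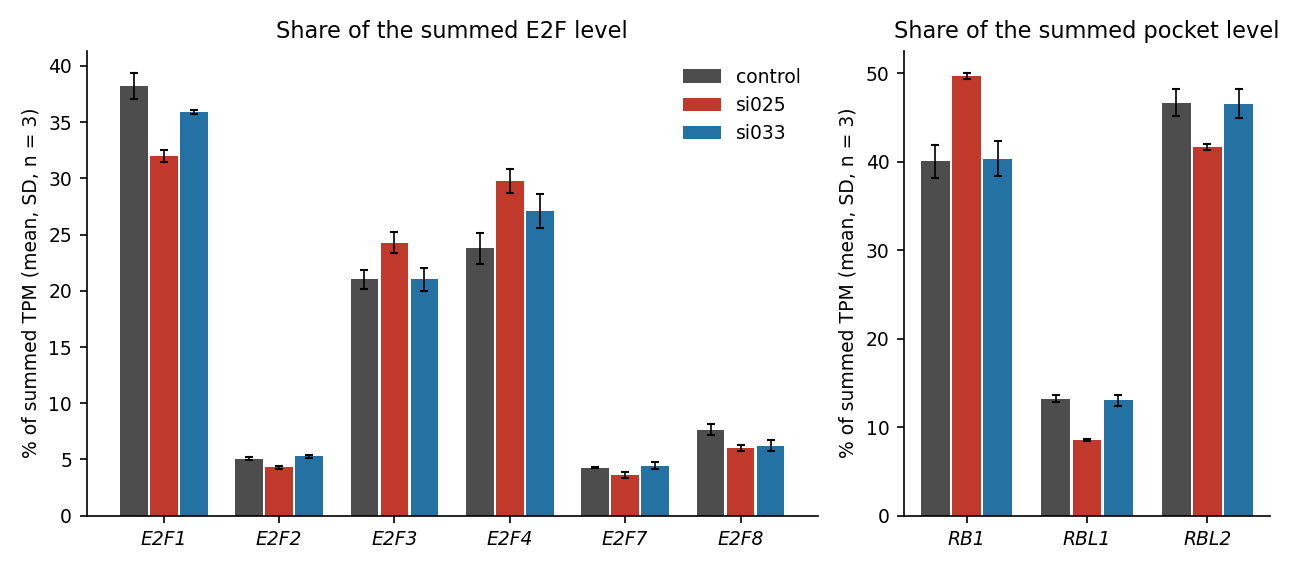
Shares in percent of the summed TPM of the 6 E2F genes (left) and of the 3 pocket protein genes (right), as means with SD over 3 libraries. The *RB1* share stands at 49.7% with si025 against 40.1% in control cells and 40.4% with si033.

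The other genes of the pathway were taken from lists written by hand, and their counts of calls have to be read against the same background, 28.8% lower and 32.9% higher with si025 and 27.8% lower and 26.9% higher with si033. Of 11 other E2F, DP and MuvB genes, 6 were called with si025, all 6 lower, and 6 with si033, 1 higher and 5 lower. These totals are not above the share called over all genes (61.7% and 54.8%). The list medians were -0.22 and -0.14. *MYBL2*, which encodes the B-MYB partner of MuvB and is an E2F target, was at 155 ± 1.88 CPM in control cells, 93.6 ± 5.98 with si025 and 127 ± 3.93 with si033. It fell with both (-0.73, adjusted *p* = 1.47e-11, and -0.29, adjusted *p* = 3.35e-05). The MuvB subunit *LIN52* fell with si025 (-0.89, adjusted *p* = 4.16e-09), and its si033 value of -0.16 was not called (adjusted *p* = 0.088). The subunit *LIN9* fell with both (-0.51, adjusted *p* = 4.68e-07, and -0.63, adjusted *p* = 3.27e-08), and its difference of 0.12 between the siRNAs was not called (adjusted *p* = 0.123). *FOXM1*, a factor that binds MuvB in G2, was lower by -0.44 and -0.30. *E2F6*, a repressor that binds no pocket protein, was at 36.7 ± 0.464, 36.6 ± 1.02 and 37.4 ± 3.20 CPM and was not called with either siRNA (adjusted *p* = 0.95 and 0.851). The alternative DP partner *TFDP2* changed by -0.22 with si025 (adjusted *p* = 0.0101, lost without si025 replicate 2), and its si033 value of -0.14 was not called (adjusted *p* = 0.106). The 1 higher gene was *E2F5* with si033 (0.16, adjusted *p* = 0.0225), a call lost with DESeq2 and in 3 of the fits that left out a library.

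Upstream of the pocket proteins, 14 of 16 genes for G1 cyclins, their kinases and kinase inhibitors were tested (*CCND2* and *CDKN1C* were too low). With si025, 3 of the 14 were higher and 7 lower, beside 32.9% and 28.8% of all genes. With si033, 3 were higher and 6 lower, beside 26.9% and 27.8%. In total 10 and 9 of the 14 were called, beside 61.7% and 54.8% of all genes. The kinase genes *CDK4* (-0.52 and -0.25) and *CDK2* (-0.55 and -0.18) fell with si025 and si033, respectively. The cyclin gene *CCNE2* fell with both, from 72.9 ± 2.42 to 42.5 ± 1.10 and 42.5 ± 3.48 CPM (-0.79 and -0.78), and the difference of -0.01 between the siRNAs was not called (adjusted *p* = 0.9). *CCNE1* was not called with si025 (-0.03, adjusted *p* = 0.855) and was lower with si033 (-0.46, adjusted *p* = 0.0108, lost without control replicate 3). *CCND1* rose with si025 (0.22, adjusted *p* = 4.23e-05), and its si033 value of 0.02 was not called (adjusted *p* = 0.716). *CDC25A*, a phosphatase that activates CDK2, and the inhibitor gene *CDKN2D* fell with si025 (-0.82 and -0.79). With si033 *CDKN2D* fell as well (-0.34, adjusted *p* = 0.00372, lost without control replicate 3), whereas the *CDC25A* value of -0.05 was not called (adjusted *p* = 0.366).

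The inhibitor gene *CDKN1A*, which encodes p21, was called in opposite directions, as were *CDK6* and *CDKN2C* of this list. Its libraries were at 30.1, 32.4 and 31.1 CPM in control cells, at 50.5, 53.9 and 52.7 CPM with si025 and at 13.8, 14.2 and 13.0 CPM with si033. The groups lay far apart. It rose by 0.75 with si025 (SE 0.057, adjusted *p* = 9.48e-11) and changed by -1.20 with si033 (SE 0.069, adjusted *p* = 9.57e-13), a difference of 1.95 (adjusted *p* = 2.37e-17). *CDKN2A*, expressed at a low level, was also higher with si025, at 4.99 ± 0.152 against 2.70 ± 0.152 CPM (0.88, adjusted *p* = 3.71e-05), and its si033 value of -0.35 was not called (adjusted *p* = 0.112). With si033 the most increased gene was *CDK6*, from 1.41 ± 0.344 to 3.38 ± 0.489 CPM (1.28, adjusted *p* = 2.04e-05). With si025 it was lower, at 0.938 ± 0.212 CPM (-0.65, adjusted *p* = 0.0397), a call lost with DESeq2 and in 4 of the fits that left out a library, namely without control replicate 1, control replicate 3, si025 replicate 2 or si025 replicate 3. *CDKN2C* (0.17, adjusted *p* = 0.0455) and *CDKN1B* (0.16, adjusted *p* = 0.025), which encodes p27, were called higher with si033, and each lost its call in several alternatives. *CDKN2C* was lower with si025 (-0.20, adjusted *p* = 0.018, lost without si025 replicate 1), a difference of -0.37 between the siRNAs (adjusted *p* = 8.59e-05). *CDKN1B* was not called with si025 (0.10, adjusted *p* = 0.116).

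Of 12 genes for RB corepressors, RB phosphatases and E2F turnover, 2 were higher and 8 lower with si025, and 1 was higher and 7 lower with si033, beside 28.8% and 27.8% lower over all genes. *SKP2*, the ubiquitin ligase subunit that marks p27 for decay and is itself an E2F target, fell from 98.8 ± 2.34 CPM to 47.8, 45.3 and 48.0 CPM in the si025 libraries (-1.07, adjusted *p* = 3.95e-14), and it was also lower with si033 (-0.30, adjusted *p* = 1.89e-05). *CCNF*, which encodes the cyclin F subunit of a ubiquitin ligase, was lower with both (-0.80 and -0.47). *PPP1CA*, a catalytic subunit of the phosphatase that acts on RB1, was higher with si025 (0.25, adjusted *p* = 1.91e-05) and lower with si033 (-0.33, adjusted *p* = 7.99e-07). *ARID4A*, an RB1-binding corepressor, was higher with both (0.18 and 0.37), and the si025 call was lost with DESeq2, among others.

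Genes that E2Fs are known to activate at the G1/S transition were mostly lower. Of 34 such genes, 34 were lower with si025 and 29 with si033, beside 28.8% and 27.8% of all genes, 5 were not called with si033, and none was called higher in either comparison. The list medians were -0.84 and -0.34, and single genes lay between -1.37 and -0.32 with si025 and between -0.73 and -0.03 with si033. *MCM3*, a subunit of the replicative helicase, was at 212, 209 and 207 CPM in control cells, at 80.8, 83.0 and 78.1 CPM with si025 and at 150, 156 and 149 CPM with si033. *CDC45*, a further helicase component, changed by -1.33 with si025 and -0.27 with si033. With si033 the lowest values were those of *CDC6* (-0.73), which loads the helicase, and *POLA2* (-0.65), a subunit of the priming polymerase, and with si025 these were at -1.07 and -0.78. In the direct comparison 34 of the 34 genes were lower with si025, beside 29.7% of all genes, with a median difference of -0.40. E2F words were found in the promoters of 18 of the 30 listed genes with an entry (60.0%). Over all tested genes with an entry, 649 held one and 9299 held none.

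Late cell-cycle genes, which are repressed by DREAM and activated by B-MYB and FOXM1, fell as well. Of 20 genes, 19 were lower with si025 and 18 with si033, beside 28.8% and 27.8% of all genes, with medians of -0.61 and -0.44. *CENPF*, a kinetochore protein gene, fell from 361 ± 16.2 CPM to 173 ± 14.0 and 211 ± 3.70 CPM (-1.07 and -0.78). The mitotic kinase gene *AURKB* (-1.05 with si025 and -0.51 with si033) and the cyclin gene *CCNB1* (-0.84 and -0.63) were lower with both. *AURKA* was called higher with si033 (0.16, adjusted *p* = 0.00609) and lower with si025 (-0.14, adjusted *p* = 0.0129), the latter call being lost without control replicate 3 or si025 replicate 1. CHR words stood in the promoters of 11 of the 16 listed genes with an entry (68.8%) and E2F words in those of 2. Over all tested genes with an entry, 1515 held a CHR word and 8433 held none.

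Apoptosis genes that E2F1 is known to activate gave a mixed picture. Of 6 genes, 5 were tested (*HRK* was too low). With si025, 1 was higher and 3 lower, and with si033, 2 were lower and none was called higher, beside 28.8% and 27.8% lower over all genes. *PMAIP1*, a BH3-only gene, was lower with si025, at 1.62 ± 0.0725 against 3.61 ± 0.611 CPM in control cells (-1.11, adjusted *p* = 6.32e-05). Its si033 value of -0.37 was not called (adjusted *p* = 0.102). *BBC3*, which encodes the BH3-only protein PUMA, was lower with si025 (-1.03, adjusted *p* = 2.14e-05). It was also lower with si033 (-0.46, adjusted *p* = 0.0228), a call lost with DESeq2 and without control replicate 1 (-0.30, adjusted *p* = 0.142), si033 replicate 1 or si033 replicate 3. *TP73*, a relative of p53, was lower with si033 (-0.30, adjusted *p* = 0.0099) and with si025 (-0.23, adjusted *p* = 0.038), the latter call being lost in 7 of 16 alternatives, DESeq2 among them. *APAF1*, which encodes the apoptosome scaffold, was higher with si025 (0.40, adjusted *p* = 4.74e-05), and its si033 value of 0.17 was not called (adjusted *p* = 0.0517).

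**Figure D5:**
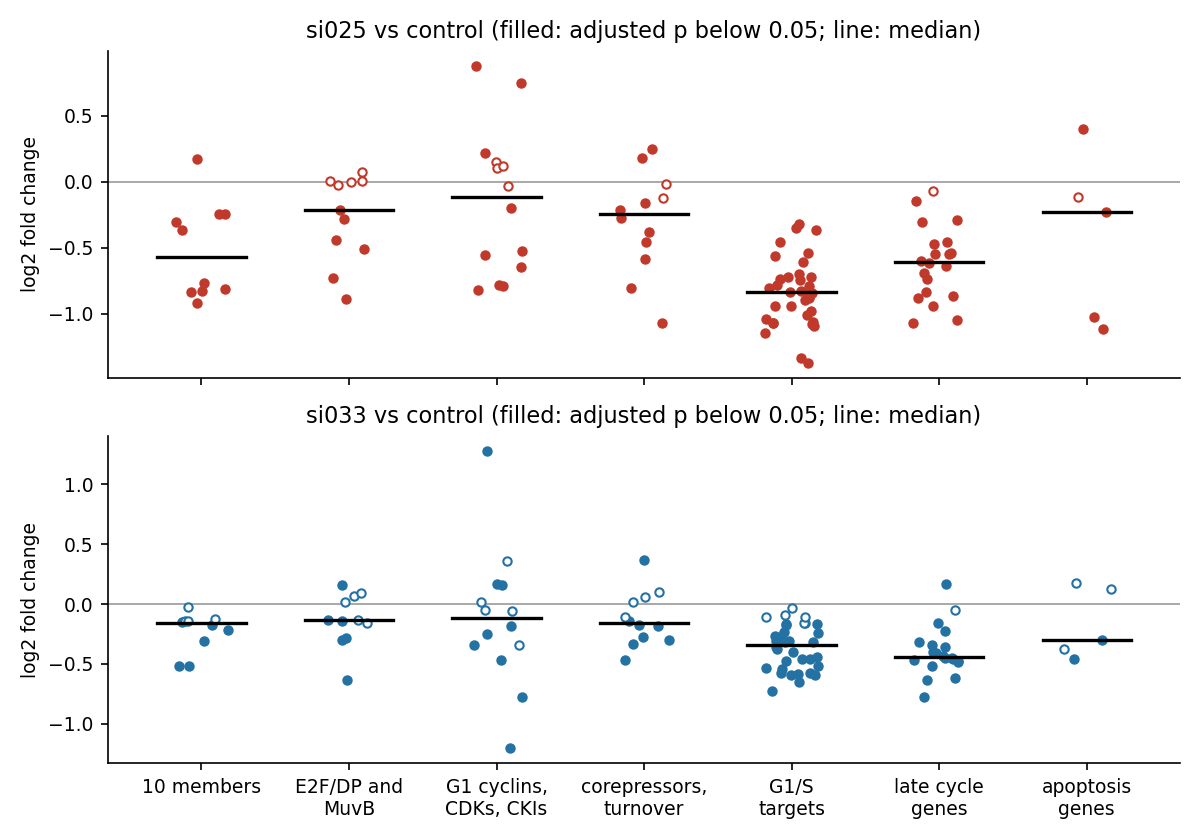
Log2 fold change against control of each tested gene in the 10 members and the 6 pathway lists, for si025 (top) and si033 (bottom). Filled points are called, open points are not, and lines mark the list median, which is -0.84 with si025 and -0.34 with si033 for the G1/S targets.

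All tested genes with a promoter entry were then grouped by their number of E2F words, as a description. Genes with no E2F word (9299) had a median log2 fold change of 0.02 with si025 and 28.6% of them were called lower. Genes with 1 word (618) had a median of -0.09, with 40.0% lower, and the 31 genes with 2 or more had a median of -0.23, with 54.8% lower. With si033 the medians were 0.01, -0.05 and -0.19, and 27.8%, 32.5% and 54.8% were lower. Within the family the words did not fully order the changes with si025. *E2F7*, with no word in its window, was at -0.83, as was *E2F1*, which has 2. The other genes shown without a word, *E2F4* and *RBL2*, were at -0.24 and -0.30. The other genes with a word were *E2F2* at -0.81, *RBL1* at -0.77, *E2F3* at -0.37 and *TFDP1* at -0.24.

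The genes whose log2 CPM followed that of the members most closely over the 9 libraries were named as a description. The libraries share their groups, so a gene with the same group means scores high. For *E2F1* they were *PSMC3IP*, *NACC1* and *LMNB2* (Pearson's r between 0.993 and 0.994), and 349 of 12800 genes had an r over 0.95. For *E2F8* they were *BUB1B*, *KIF11* and *NUP107* (0.994 to 0.996), and 376 genes passed 0.95. *RB1* had far fewer such genes, 18, led by *FNIP1* (0.986), *CPEB4* (0.973) and *ZNF117* (0.970). Spread within groups lowers r, and *RB1* had small changes and si033 libraries from 65.1 to 79.9 CPM. How far this accounts for its lower number was not tested. For *RBL2* the closest genes were *LOC100506248* (0.989), *RPAP3* (0.986) and *XPO7* (0.978), among 82.

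Transcripts with a 3′ UTR match to bases 2 to 8 of an siRNA can be lowered directly. The oligos listed by the study are shown so that such matches in the members can be seen. They are printed as listed, without the UU at the end of siRNAs 1# and 2#, and capitals mark bases 2 to 8. The labels do not tie si025 or si033 to the numbered siRNAs.

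siRNA negative control: uAGCGACUaaacacaucaa
IGF1R-AS1-siRNA-1#: aGAAAGCAcugaagaccua
IGF1R-AS1-siRNA-2#: cCGUAUUGcucaguggaaa

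Matches of either strand were searched in the canonical GENCODE 3′ UTRs, found for 12084 tested genes including all 10 members. Only 1 of the 6 words, TGCTTTC, which pairs with the listed strand of siRNA 1#, occurred in the members. It stood once in *E2F7* and at 2 positions in *RBL1*, and in 21.0% of all genes. The copies, in capitals with 10 bases on each side, are printed here.

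E2F7, base 2527 of 2764: aacgtaaagcTGCTTTCtgcttatctt
RBL1, base 904 of 2410: cactcatcctTGCTTTCcagccctaag
RBL1, base 1560 of 2410: gtactagggaTGCTTTCcaaaatatca

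Genes with this word had a median log2 fold change of -0.02 with si025 and 0.01 with si033, beside 0.03 and -0.00 in genes without it. The word CACATCA, which pairs with the complement of the control siRNA, was in none of the members. Over all genes that held it, 11.7%, the medians were 0.16 with si025 and 0.13 with si033, beside 0.01 and -0.01 in genes without it.

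The libraries held between 11649811 and 28492259 counts, with a spread of depths in every group. The biological coefficient of variation over all genes was 4.13%. The cell type was checked on markers. All 10 prostate luminal and VCaP markers, *ERG* and *HOXB13* among them, were over 1 CPM in every library, and their summed level was 5232 to 5287 CPM in control cells, 8047 to 8373 with si025 and 4815 to 5077 with si033. Of these markers 9 were called higher and 0 lower with si025, beside 32.9% and 28.8% of all genes. With si033, 4 were called higher and 4 lower, beside 26.9% and 27.8% of all genes. Of 12 markers of other cell types, 7 were under 1 CPM in every library, *CD3E* and *KRT5* were at 0 throughout, and their summed level was 33.4 to 37.9 CPM in control cells, 38.6 to 41.7 with si025 and 38.0 to 38.1 with si033, most of it from *SYP*. Of the 5 that were tested, *COL1A1* (1.07, adjusted *p* = 0.000117) and *VWF* (0.84, adjusted *p* = 0.0143) were called higher with si025, and their si033 values of -0.20 and 0.13 were not called. The part of these shifts in the changes above was not tested.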

How the data were processed

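RNA-seq libraries of VCaP cells (3 control, 3 si025, 3 si033) were assigned to groups by sample title. Libraries were made from 1.3 µg of total RNA with an Illumina stranded kit. For extraction the labels give a Promega kit and the study's methods a Qiagen kit. According to the submitters' processing notes, the authors used HISAT2 2.1.0 and hg38. Per the file headers, the deposited counts are unnormalised read pairs per gene symbol, made with featureCounts 1.5.2 on the sense strand over RefSeq exons, whereas the methods name GENCODE. Pairs mapping to several places were not counted by the defaults of that program.

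The 10 members and all gene lists were chosen with earlier results of these data known, so list counts are descriptions. A few genes of the lists are not reported here and were left out of every list count. The rule for naming gave all members and, per list and knockdown, the 2 most decreased and 2 most increased called genes, plus 11 fixed pathway genes.

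Counts were tested with edgeR 4.0.16 in R 4.3.3 (quasi-likelihood test, TMM, default expression filter, 12810 genes). The fit held group means only and used all 9 libraries. Each SE is the absolute fold change over the root of F, and 95% intervals from the t distribution with the degrees of freedom of the fit. On data simulated from these libraries the fit was tested before use. The 16 alternatives were relative log expression and upper quartile scaling, no filter, DESeq2 1.42.0, a fit of the compared groups only, a replicate block, offsets for length and GC content, and leaving out each of the 9 libraries in turn. CPM values were scaled by TMM, and TPM used counted exon lengths.

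Promoters came from RefSeq (GRCh38.p14) and 3′ UTRs from GENCODE version 44, whose genes overlapped 18245 of 18246 matched symbols of the files. The level of *IGF1R-AS1* was not analysed here.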

Additional observations from a re-analysis of the deposited data

Results flagged for a closer look

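Because both siRNAs were aimed at the same transcript, a difference between them drew a closer look at each of the 10 genes. Tested directly in the edgeR fit, all 10 differed between si025 and si033. The log2 difference, negative where si025 was lower, was -0.52 for *E2F1*, -0.67 for *E2F2*, -0.15 for *E2F3*, -0.21 for *E2F4*, -0.69 for *E2F7*, -0.40 for *E2F8*, -0.60 for *RBL1* and -0.15 for *RBL2*. It was 0.27 for *TFDP1* and 0.30 for *RB1*. Over all genes, 60.9% were called in this contrast. *RB1* was the member whose changes against control had opposite signs, 0.18 with si025 (called) and -0.12 with si033 (not called).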

How the results depend on the processing

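Over 16 alternatives, the 30 results of the members (10 genes in 3 comparisons) gave 480 values. Of these, 460 kept their side of the threshold, 14 lost a call, 6 gained one and 0 called values turned direction. Values that were not called could change sign, as those of *E2F4* with si033 did. The size of a change varied as well. With si025 it ran from -0.99 to -0.80 for *E2F1*, from -1.02 to -0.79 for *E2F2* and from -0.49 to -0.34 for *E2F3*. For *E2F4* it ran from -0.36 to -0.18. The most negative value of each of these genes came from the offsets for gene length and GC content. For *E2F1*, *E2F2* and *E2F3* this value lay below the 95% interval of the main analysis. For 23 of the 30 results no alternative moved the call. The number of members called ranged from 9 to 10 for si025 against control, from 4 to 8 for si033 against control and from 9 to 10 between the siRNAs. The lost and gained calls belong to *RB1*, *RBL1*, *RBL2*, *E2F2* and *E2F7* and are given beside those genes, except that the call of *E2F2* with si033 was gained with relative log expression scaling (-0.15, adjusted *p* = 0.0459), with a replicate block (-0.14, adjusted *p* = 0.0476) and without si033 replicate 1 (-0.16, adjusted *p* = 0.0421), and that of *E2F7* with si033 with offsets for length and GC content (-0.14, adjusted *p* = 0.0438). The cause was not tested. Of 105 results for other named genes, 81 kept their side of the threshold throughout, and no called value reversed. With the replicate block, 10, 7 and 10 members were called. Deviations from the group means were hardly correlated between libraries with the same replicate number (from -0.0214 to 0.0729 over 9 pairs). With 3 libraries per group these correlations cannot show whether such libraries shared a culture or batch. Depth was lowest in replicate 1 and highest in replicate 3 of every group. Counts of members ran down to 215 read pairs, which limits the precision for the genes with the fewest, *E2F7*, *E2F8* and *E2F2* among them.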
